A study of Mus musculus with 8 samples.

Results

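The genes described here are 9 Toll-like receptor genes of the mouse, Tlr1, Tlr2, Tlr3, Tlr4, Tlr6, Tlr7, Tlr8, Tlr9 and Tlr13. They were chosen by symbol and matched to Ensembl identifiers, and they are 9 of the 46517 genes in the deposited table. Their levels were followed in 8 RNA-seq libraries of osteoclasts, the multinucleated cells that resorb bone. The question was whether their levels differed between 4 Elmo1-/- and 4 Elmo1+/- cultures, each from the bone marrow of 1 mouse aged 6 to 8 weeks.

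ELMO1 is a cytoplasmic protein that works with DOCK proteins to activate the small GTPase Rac. Elmo1-/- mice carry the deletion in all cells of the body, and the Elmo1+/- controls keep 1 intact copy. Library titles name the controls WT, while the genotype label is Elmo1+/-, which is used throughout. Both groups were cultured alike. Marrow cells from femurs stayed for 16 h in a-MEM with 10% FBS, and the cells then in suspension were grown with 10% L929 conditioned medium, which supplies macrophage colony-stimulating factor. GST-RANKL, the cytokine that drives osteoclast formation, was given at 50 ng/ml for 7 days. The labels name both additions together, while the methods of the study place a few days with the conditioned medium alone, and a replating of the attached cells, before GST-RANKL. The protocol names no added Toll-like receptor ligand. Libraries carry the numbers 1 to 4 within each genotype. According to the methods, each experiment held 2 mice of either genotype, but which ones is not stated.

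Toll-like receptors are membrane proteins that recognise conserved molecules of microbes and of damaged cells. Some sit at the cell surface and bind lipids and lipoproteins, while others sit in endosomes and bind nucleic acids. All signal through adaptor proteins such as MYD88 or TICAM1 to NF-kappaB and interferon regulatory factors. Osteoclasts arise from the monocyte and macrophage lineage, whose cells carry many of these receptors, and ligands of the receptors are known to act on osteoclast precursors.

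Reads of Tlr1 and Tlr6, neighbouring genes on chromosome 5, are hard to tell apart over part of their length, so the longest stretch that they share is shown. TLR1 and TLR6 both pair with TLR2, and their transcripts held 4 identical runs of at least 75 bases, the read length, 636 bases in all. The longest run was 229 bases. In the 2 lines below, capitals mark that run and lower case the 12 flanking bases on each side, 5′ to 3′ on the minus strand (GRCm38). The first stretch lies in the coding part of exon 4 of 4 of Tlr1, at chr5:64925525-64925777, and the second in the coding part of exon 2 of 2 of Tlr6, at chr5:64953816-64954068.
Tlr1: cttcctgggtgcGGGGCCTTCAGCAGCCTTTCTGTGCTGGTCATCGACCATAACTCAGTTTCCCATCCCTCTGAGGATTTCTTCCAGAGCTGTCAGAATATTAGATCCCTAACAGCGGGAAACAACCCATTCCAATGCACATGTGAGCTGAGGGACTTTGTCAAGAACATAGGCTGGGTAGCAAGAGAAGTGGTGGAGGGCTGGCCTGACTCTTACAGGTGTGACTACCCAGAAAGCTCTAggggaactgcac
Tlr6: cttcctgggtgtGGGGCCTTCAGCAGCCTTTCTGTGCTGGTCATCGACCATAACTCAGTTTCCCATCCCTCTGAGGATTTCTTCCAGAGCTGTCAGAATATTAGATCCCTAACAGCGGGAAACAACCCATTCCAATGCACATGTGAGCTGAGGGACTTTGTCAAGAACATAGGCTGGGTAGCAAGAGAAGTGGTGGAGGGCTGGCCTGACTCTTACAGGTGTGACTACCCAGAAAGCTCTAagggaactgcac
Of all 75-base windows, 11.5% of those of Tlr1 and 9.44% of those of Tlr6 were shared. Windows stand for single reads, and the pairing of the reads was not considered. How such reads were counted is not given in the sources used here, and the Tlr1 and Tlr6 values carry that uncertainty. Tlr3 shared 0.992% of its windows with the antisense gene Gm45542, while the other 6 receptors shared no window with another gene. Whether counting used the strand is not given either.

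Promoter windows of 250 bases before the start were read from the RefSeq table (GRCm38.p6), which gave 9 windows for 7 of the receptors. Tlr4 and Tlr7 had no entry. Windows of Tlr9 and Tlr8 are shown, because both genes moved together with other receptors between libraries (described below with the library numbers), and because these windows held matches to motifs of factors active in myeloid cells. Motifs were searched on both strands. They were the core GAGGAA bound by PU.1, the repeat GAAANNGAA bound by interferon regulatory factors, and the AP-1 site TGACTCA, and the end of GAGGAA can overlap the start of GAAANNGAA. Capitals mark the matches, and the sequences run 5′ to 3′ on the strand of the gene. The Tlr9 window lies on the plus strand at chr9:106222348-106222597, and that of Tlr8 on the minus strand at chrX:167264330-167264579.
Tlr9: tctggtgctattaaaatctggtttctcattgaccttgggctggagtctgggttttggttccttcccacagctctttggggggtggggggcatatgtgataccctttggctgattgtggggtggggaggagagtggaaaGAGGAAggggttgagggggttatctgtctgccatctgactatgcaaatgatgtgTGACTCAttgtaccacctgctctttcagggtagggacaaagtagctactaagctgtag
Tlr8: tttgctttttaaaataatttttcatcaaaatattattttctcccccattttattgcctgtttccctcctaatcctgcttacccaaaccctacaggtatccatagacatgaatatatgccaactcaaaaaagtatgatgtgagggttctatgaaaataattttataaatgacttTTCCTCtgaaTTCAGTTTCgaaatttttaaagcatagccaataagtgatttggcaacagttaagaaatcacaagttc
In the Tlr9 window GAGGAA began 112 bases and TGACTCA 58 bases before the start. In the Tlr8 window, matches on the other strand began 77 bases before the start for GAGGAA and 67 bases for GAAANNGAA. These matches did not overlap. GAGGAA was found for 4 of the 7 receptors (Tlr1, Tlr8, Tlr9 and Tlr13), GAAANNGAA for 2 (Tlr6 and Tlr8) and TGACTCA for 1 (Tlr9). Counted by window, 4, 2 and 1 of the 9 held these motifs, beside 23.3%, 7.13% and 4.46% of all 32851 windows. The windows of Tlr2 and Tlr3, which moved with the library numbers too, held none. A match is a run of letters and not evidence of binding.

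Libraries held 20905502 to 40846651 reads on genes. Elmo1 itself lay between 274 and 316 normalized counts in the Elmo1-/- libraries and between 1423 and 1769 in the Elmo1+/- libraries, a log2 difference of -2.44 (limma, Benjamini-Hochberg adjusted p = 8.4e-06). All 12 osteoclast markers and all 8 macrophage markers reached at least 10 normalized counts in every library. Ctsk, the protease that degrades bone collagen, lay between 69531 and 328164. Among markers of other cells, 5 of 8 for neutrophils (summed level 10315 to 22511) and 2 of 6 for stromal cells (467 to 1101) reached 10 normalized counts everywhere. The libraries numbered 1 and 2 stood apart from those numbered 3 and 4, and 3 of the 8 held no Xist reads, so the genotype differences are also given within the numbers and with a term for Xist reads. In bulk RNA, fewer cells of a type and less RNA per cell cannot be told apart.

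Receptor levels spanned a wide range, and the order was compared as normalized count per kilobase of exons, the scale on which different genes can be set side by side. Tlr13, an endosomal receptor of mice for bacterial ribosomal RNA, was highest at 2191 ± 178 per kilobase (SD, n = 8 libraries here and for the other levels per kilobase). Tlr2, the surface receptor for bacterial lipoproteins, followed at 2017 ± 337. Tlr13 was above Tlr2 in only 5 of 8 libraries, so these neighbours did not differ beyond their spread. Tlr2 was the higher in Elmo1+/- mice 1 and 2 and Elmo1-/- mouse 1, the libraries without Xist reads. On this scale Tlr13 exceeded 94.3% and Tlr2 93.8% of the tested genes.

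Tlr7, which binds single-stranded RNA in endosomes, came next at 1111 ± 286 per kilobase. It was below Tlr2 and above Tlr8 in 8 of 8 libraries. Tlr8, its close relative and neighbour on the X chromosome, lay at 537 ± 89.8 per kilobase, and Tlr1 at 498 ± 96.8. Tlr8 was above Tlr1 in 7 of 8 libraries, but their order turned when the length of Tlr1 was shortened by the windows that it shares with Tlr6, which gave 563 per kilobase for Tlr1. The count was left unchanged for this, as if no shared read had been counted. Tlr4, the receptor for lipopolysaccharide, lay at 356 ± 56.3, below Tlr1 in 8 of 8 libraries.

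Tlr6 lay at 196 ± 42.3 per kilobase, below Tlr4 and above Tlr3 in 8 of 8 libraries. Tlr3, the endosomal receptor for double-stranded RNA, lay at 63.3 ± 14.0, and Tlr9, the endosomal receptor for unmethylated CpG DNA, at 53.7 ± 22.1. These last neighbours did not differ beyond their spread, with Tlr3 above Tlr9 in 5 of 8 libraries. Tlr9 was the higher in Elmo1+/- mice 1 and 2 and Elmo1-/- mouse 1, again the libraries without Xist reads. Of the summed level per kilobase of the 9 genes, Tlr13 made up 31.2%, Tlr2 28.7% and Tlr7 15.8%, while Tlr3 made up 0.901% and Tlr9 0.765%.

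**Figure D1:**
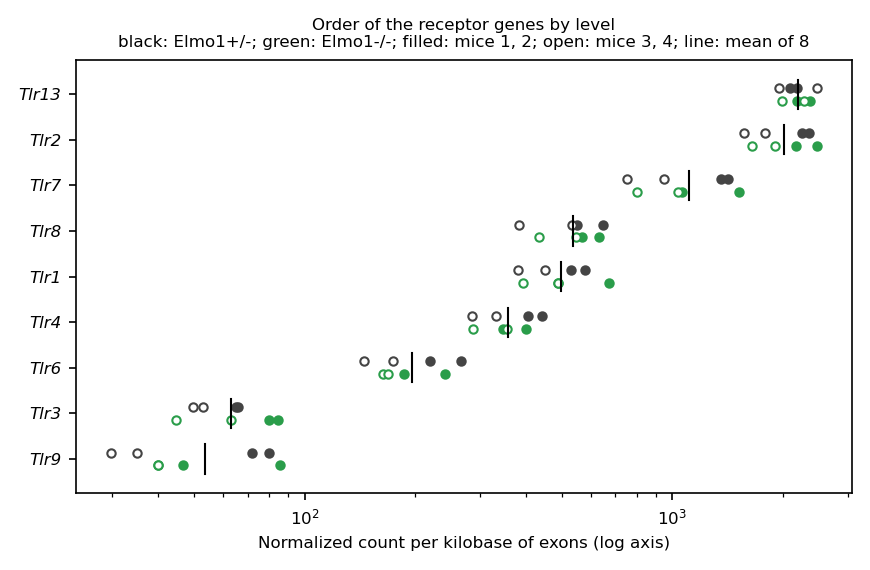
Level of each receptor gene in the 8 libraries, as normalized count per kilobase of exons on a log axis. Points are single libraries (black Elmo1+/-, green Elmo1-/-, filled mice 1 and 2, open mice 3 and 4) and vertical lines are means of 8, from 2191 for Tlr13 down to 53.7 for Tlr9. Black and green points lie intermixed for every gene.

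Between the genotypes, no difference was detected for any of the 9 receptor genes. In the limma test 0 of 9 were called at an adjusted p of 0.05, beside a background of 0.00707% of all 14139 tested genes (1 gene, Elmo1), and 0 of 9 had an unadjusted p under 0.05, beside 0.941% of all genes. Both counts were also 0 of 9 with edgeR (background 0.00704% and 1.02%) and with DESeq2 (0.00812% and 0.735%) on the recovered reads. All 9 genes passed the filter on low values. For every gene the ranges of the genotypes overlapped, while they did not overlap for 0.941% of all genes. The log2 differences, Elmo1-/- minus Elmo1+/-, lay between -0.066 and 0.19 with a median of 0.025, beside a median of -0.0031 over all tested genes, with 6 genes above and 3 below 0.

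**Figure D2:**
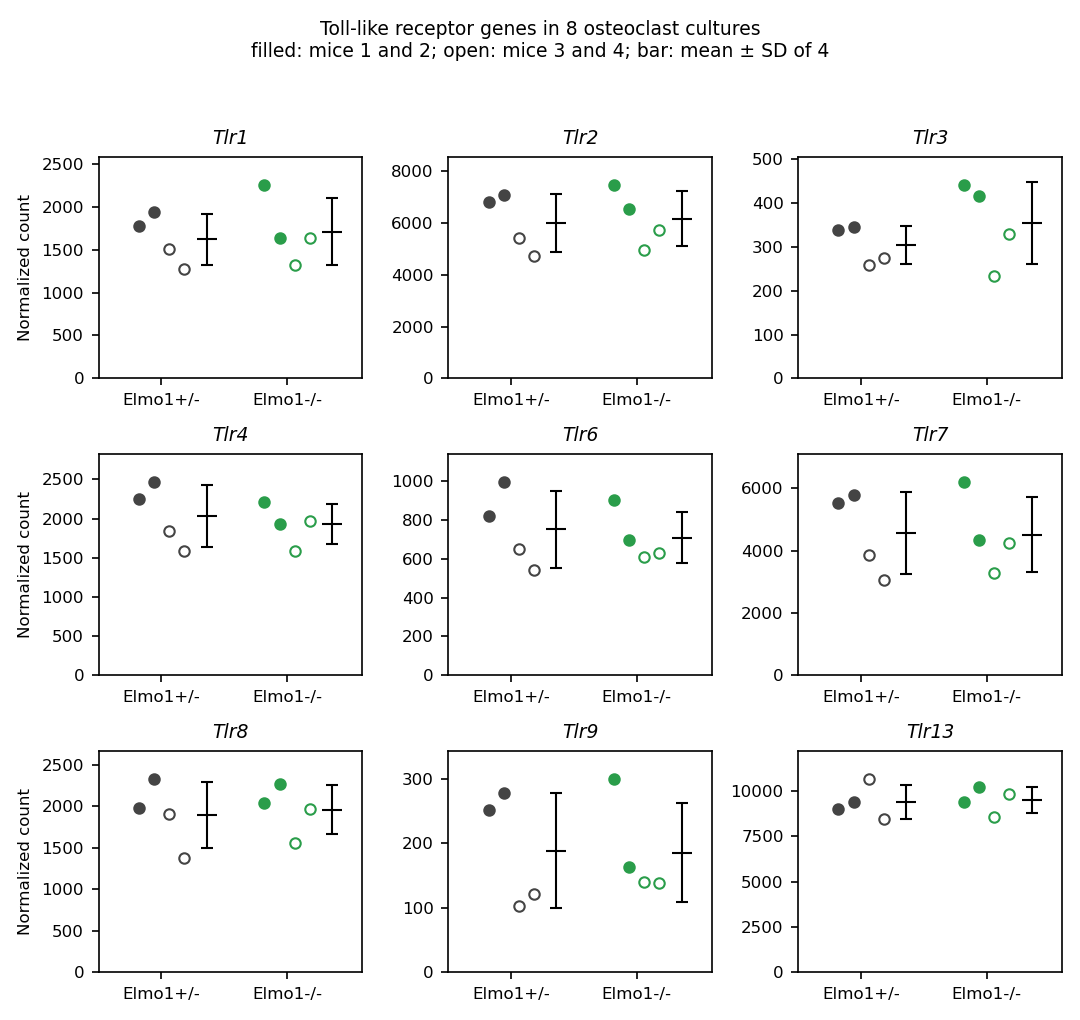
Normalized count of each receptor gene in each library, by genotype, on axes that start at 0. Points are single libraries (filled mice 1 and 2, open mice 3 and 4) and bars are the mean ± SD of 4. The genotypes overlap in all 9 panels, and in both genotypes the filled points lie above the open ones for the 6 genes Tlr2, Tlr3, Tlr6, Tlr7, Tlr8 and Tlr9.

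The surface receptors are given first. Tlr2 (ENSMUSG00000027995, minus strand, chr3:83836272-83841767 in GRCm38) encodes the shared partner of the lipoprotein receptors. Its normalized counts were 6795, 7072, 5396 and 4716 in the Elmo1+/- cultures numbered 1 to 4, against 7440, 6520, 4966 and 5731 in the Elmo1-/- cultures. The highest and the lowest library came from different genotypes, with mice 1 and 2 high in both. Means were 6165 ± 1061 in Elmo1-/- and 5995 ± 1125 in Elmo1+/- (SD, n = 4 for these and all genotype means), a log2 difference of 0.044 with an SE of 0.16 and a 95% interval of -0.33 to 0.41 (exact two-sided permutation p = 0.771).

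Tlr1 (ENSMUSG00000044827, minus strand, chr5:64924679-64933563) encodes the partner of TLR2 for triacylated lipoproteins. Elmo1+/- mice 1 to 4 had 1778, 1941, 1503 and 1270 normalized counts, and Elmo1-/- mice 1 to 4 had 2248, 1634, 1317 and 1635. Elmo1-/- mouse 1 was highest and Elmo1+/- mouse 4 lowest, with the other libraries interleaved. The means, 1709 ± 389 and 1623 ± 297, differed by a log2 of 0.066, higher in Elmo1-/- (SE 0.18, 95% interval -0.34 to 0.47, exact two-sided permutation p = 0.743).

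Tlr6 (ENSMUSG00000051498, minus strand, chr5:64952031-64960097) encodes the partner of TLR2 for diacylated lipoproteins. Normalized counts were 819, 992, 650 and 540 in the Elmo1+/- cultures numbered 1 to 4, against 900, 697, 609 and 629 in the Elmo1-/- cultures. Both extremes were Elmo1+/- libraries, so the control range enclosed the other. The log2 difference was -0.062 (SE 0.20, 95% interval -0.51 to 0.39), from means of 709 ± 133 in Elmo1-/- and 750 ± 198 in Elmo1+/- (exact two-sided permutation p = 0.8).

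Tlr4 (ENSMUSG00000039005, plus strand, chr4:66827584-66930284) encodes the lipopolysaccharide receptor, which works with the co-receptors CD14 and LY96. The Elmo1+/- mice 1 to 4 had 2244, 2461, 1839 and 1587 normalized counts, and the Elmo1-/- mice 2216, 1928, 1593 and 1973. Again the Elmo1+/- libraries held both the highest and the lowest value. Means of 1927 ± 256 in Elmo1-/- and 2033 ± 393 in Elmo1+/- gave a log2 difference of -0.066 (SE 0.15, 95% interval -0.41 to 0.28, exact two-sided permutation p = 0.714).

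Of the endosomal receptors for RNA, Tlr13 (ENSMUSG00000033777, plus strand, chrX:106143204-106160493) varied least. Its normalized counts were 9013, 9402, 10619 and 8416 in the Elmo1+/- cultures numbered 1 to 4, against 9383, 10184, 8572 and 9842 in the Elmo1-/- cultures. The highest library exceeded the lowest 1.26 times, and neither genotype nor number ordered them. The log2 difference was 0.023 (SE 0.092, 95% interval -0.19 to 0.23), the narrowest interval of the 9 genes, from means of 9495 ± 697 in Elmo1-/- and 9363 ± 931 in Elmo1+/- (exact two-sided permutation p = 0.83).

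Tlr7 and Tlr8 (ENSMUSG00000044583 and ENSMUSG00000040522) lie next to each other on the minus strand of the X chromosome, at chrX:167304929-167330558 and chrX:167242696-167264329. Tlr7 had 5523, 5781, 3866 and 3071 normalized counts in the Elmo1+/- cultures numbered 1 to 4, against 6179, 4338, 3280 and 4235 in the Elmo1-/- cultures. The lowest library was Elmo1+/- mouse 4 and the highest Elmo1-/- mouse 1. The log2 difference of Tlr7 was -0.0064 (SE 0.24, 95% interval -0.56 to 0.54), with means of 4508 ± 1212 in Elmo1-/- and 4560 ± 1306 in Elmo1+/- (exact two-sided permutation p = 1). Tlr8 had 1974, 2320, 1908 and 1372 normalized counts in the Elmo1+/- cultures numbered 1 to 4, against 2033, 2264, 1560 and 1967 in the Elmo1-/- cultures. Here Elmo1+/- mouse 2 was highest and Elmo1+/- mouse 4 lowest. Its means, 1956 ± 293 in Elmo1-/- and 1894 ± 392 in Elmo1+/-, differed by a log2 of 0.059 (SE 0.17, 95% interval -0.32 to 0.44, exact two-sided permutation p = 0.743).

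Tlr3 (ENSMUSG00000031639, minus strand, chr8:45395665-45411080) is the family member that signals through TICAM1 and not MYD88. It had 338, 344, 259 and 275 normalized counts in the Elmo1+/- cultures numbered 1 to 4, against 440, 417, 233 and 329 in the Elmo1-/- cultures, from 170 to 465 reads per library. The Elmo1-/- libraries held both extremes. The log2 difference was 0.19 (SE 0.20, 95% interval -0.27 to 0.65), the difference furthest from 0 among the 9, with means of 355 ± 94.2 and 304 ± 43.5 (exact two-sided permutation p = 0.429).

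Tlr9 (ENSMUSG00000045322, plus strand, chr9:106222598-106226883) had the fewest reads, 68 to 316 per library. Its normalized counts were 251, 278, 104 and 122 in the Elmo1+/- cultures numbered 1 to 4, against 299, 163, 139 and 139 in the Elmo1-/- cultures. Elmo1+/- mice 1 and 2 and Elmo1-/- mouse 1 were high, at 251 to 299, and the other 5 libraries were low, at 104 to 163. Means were 185 ± 76.7 in Elmo1-/- and 189 ± 88.6 in Elmo1+/-, and the log2 difference of 0.025 had an SE of 0.37 and the widest 95% interval, -0.82 to 0.88 (exact two-sided permutation p = 1). These libraries thus left the genotype difference of Tlr9 the least certain of the 9.

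All 9 genes had a Benjamini-Hochberg adjusted p of 0.9999 in limma, and the exact p-values, for which 0.0286 is the smallest possible with 4 mice against 4, were all 1 after adjustment over the tested genes. The SEs, intervals and exact p-values given for the receptors leave the library numbers out. With the number as a block the SEs were smaller, as described under the processing. As a share of the summed genotype means, the Elmo1-/- mean made up 0.486 (Tlr6) to 0.538 (Tlr3), where equal means give 0.5, with a median of 0.504.

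**Figure D3:**
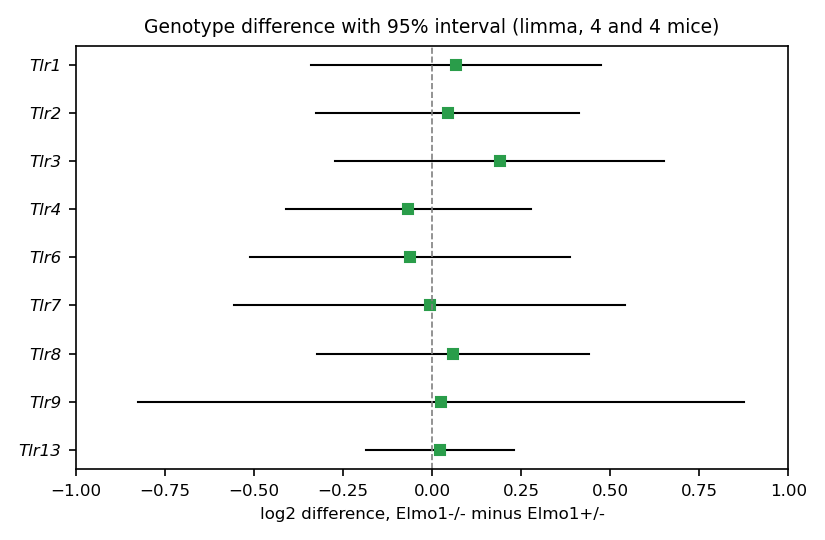
Log2 difference of each receptor gene between genotypes, Elmo1-/- minus Elmo1+/-, from limma with 4 and 4 mice. Squares are estimates and lines 95% intervals, all of which cross 0, from the narrowest for Tlr13 (-0.19 to 0.23) to the widest for Tlr9 (-0.82 to 0.88).

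Larger differences ran along the library numbers. The first principal component, with 62.3% of the variance of all tested genes, parted the libraries numbered 1 and 2 from those numbered 3 and 4, with Elmo1-/- mouse 2 the nearest to the other side. The 4 libraries numbered 1 and 2 did not overlap those numbered 3 and 4 for 6 of the 9 receptors (Tlr2, Tlr3, Tlr6, Tlr7, Tlr8 and Tlr9), all higher in 1 and 2, and for none of them lower. Over all tested genes 15.8% were higher and 18.1% lower without overlap. What the numbers stand for is not stated, and the comparison is a description with no test.

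Tlr9 had the widest gap, at 163 to 299 normalized counts in mice 1 and 2 against 104 to 139 in mice 3 and 4, a log2 difference of 0.94. Tlr7 followed at 4338 to 6179 against 3071 to 4235, a log2 of 0.59. The log2 differences of Tlr3, Tlr6, Tlr2, Tlr1, Tlr8 and Tlr4 were 0.49, 0.48, 0.42, 0.41, 0.35 and 0.34. For Tlr13 the value was 0.026, with the ranges overlapping. Tlr13, which had the highest mean level per kilobase but was not clearly apart from Tlr2, was also the receptor that varied least. As a share of the mean over 8 libraries the SD was 8.11% for Tlr13, 41.1% for Tlr9 and between 15.8% and 25.7% for the other 7.

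Cell type markers moved with the same numbers. The summed level of the 12 osteoclast markers was 454766 to 698605 normalized counts in mice 1 and 2 and 1040613 to 1186281 in mice 3 and 4. All 12 were lower in 1 and 2 without overlap. The 8 macrophage markers summed to 216365 to 281310 in mice 1 and 2 and 172784 to 217596 in mice 3 and 4, with 4 of 8 higher without overlap, among them Mrc1, the mannose receptor of macrophages. The 6 receptors that were higher in mice 1 and 2 were thus higher in the libraries with lower osteoclast markers, and the part of cell composition in their levels was not tested.

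**Figure D4:**
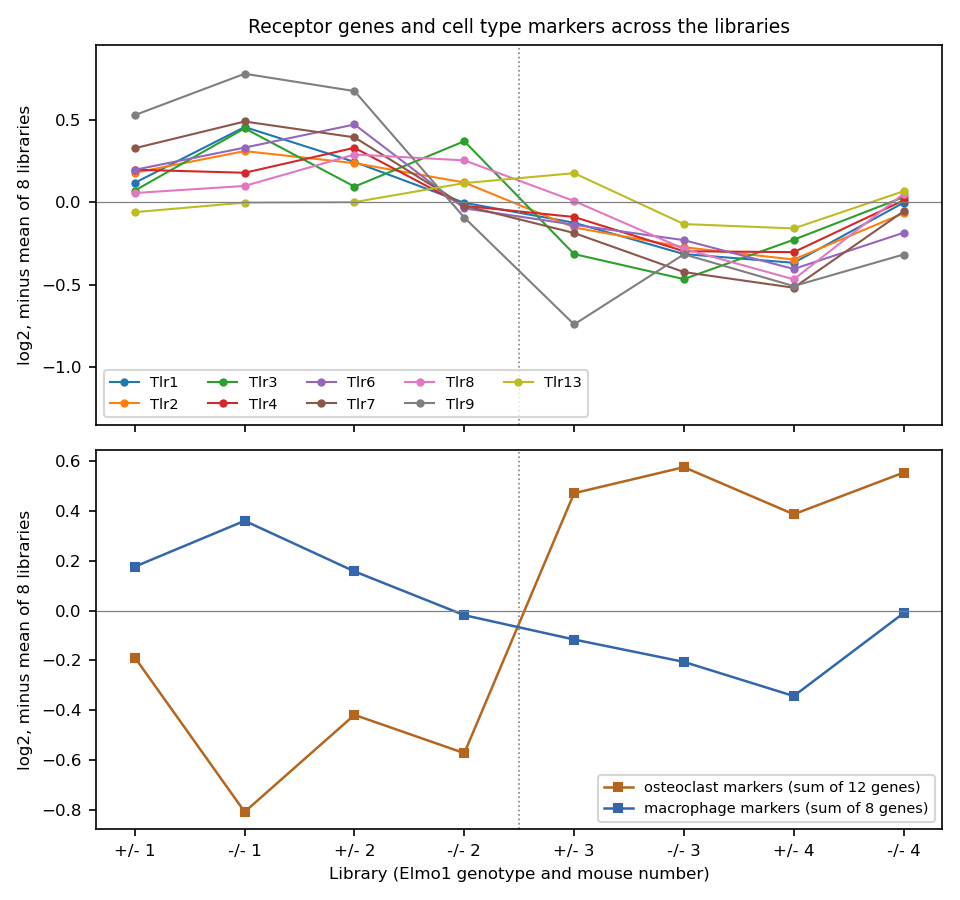
Log2 normalized count of the 9 receptor genes (upper panel) and of the summed osteoclast and macrophage markers (lower panel) in each library, each minus its own mean over the 8 libraries. The dotted line parts mice 1 and 2 from mice 3 and 4. Tlr9 spreads most and Tlr13 least, and the osteoclast sum is below its mean in all 4 libraries on the left and above it in all 4 on the right.

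Plasmacytoid dendritic cells and B cells are known for high TLR7 and TLR9. Of the 6 plasmacytoid dendritic cell markers, Klk1 had no reads, Siglech 2 reads and Ly6d 3 reads in all 8 libraries together, while the list summed to 11847 to 25651 normalized counts in mice 1 and 2 and 9682 to 11130 in mice 3 and 4. Only Bst2 and Tcf4, which many other cells express, reached 10 everywhere. Of the 6 B cell markers, Ms4a1 and Pax5 had 9 reads each in all, and only Cd79b reached 10 everywhere, at 236 to 409 in mice 1 and 2 and 157 to 213 in mice 3 and 4, and the list summed to 245 to 424 and 164 to 219.

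The 6 dendritic cell markers, of which 4 reached 10 everywhere and Cd209a had no reads, summed to 273 to 485 in mice 1 and 2 and 503 to 633 in mice 3 and 4. Most of the sum was Itgax, whose ranges overlapped, and only Zbtb46 of the 4 tested genes was lower in mice 1 and 2 without overlap. The 8 neutrophil markers summed to 13099 to 22511 in mice 1 and 2 and 10315 to 13474 in mice 3 and 4. Of the 6 T or NK cell markers none reached 10 everywhere, and the sums were 15.1 to 31.1 and 68.4 to 75.2, mostly Trac. The part of these cells in the receptor levels was not tested.

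Reads of Xist, the RNA that silences an X chromosome, divided the libraries in another way, which matters here because Tlr7, Tlr8 and Tlr13 are X-linked. Xist had no reads in Elmo1+/- mice 1 and 2 and Elmo1-/- mouse 1, and 5279 to 6929 normalized counts in the other 5. The Y-linked genes Ddx3y, Eif2s3y, Kdm5d and Uty had 445 to 1955 in the former 3 and at most 0.835 in the others. The genotypes thus differed in this respect, with 2 of 4 Elmo1+/- and 1 of 4 Elmo1-/- libraries without Xist reads. Those 3 libraries also all carry the numbers 1 and 2, so the number and the Xist reads cannot be fully told apart.

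The 3 libraries without Xist reads did not overlap the other 5 for Tlr1, Tlr2, Tlr4, Tlr6, Tlr7 and Tlr9, all 6 higher, beside 19.7% of all genes higher and 18.6% lower. Tlr9 lay at 251 to 299 normalized counts against 104 to 163 (log2 difference 1.06), and Tlr7 at 5523 to 6179 against 3071 to 4338 (0.64). The other X-linked receptors overlapped, Tlr8 at 1974 to 2320 against 1372 to 2264 and Tlr13 at 9013 to 9402 against 8416 to 10619. The macrophage marker sums did not overlap either, at 244378 to 281310 without and 172784 to 217596 with Xist reads. Without and with Xist reads, the sums were 18666 to 22511 and 10315 to 13474 for neutrophil markers, and 15956 to 25651 and 9682 to 11847 for plasmacytoid dendritic cell markers. They were 255 to 424 and 164 to 245 for B cell markers, and 273 to 329 and 485 to 633 for dendritic cell markers, none of them overlapping. T or NK cell sums were also apart, at 15.1 to 27.7 and 31.1 to 75.2. The osteoclast sums overlapped, at 454766 to 698605 and 535427 to 1186281, with 5 of 12 genes lower without overlap. Stromal sums overlapped too, at 915 to 1101 and 467 to 1098. By gene, fewer markers were apart than the sums may convey. Higher without overlap were 3 of 8 macrophage, 2 of 7 tested neutrophil, 1 of 3 tested plasmacytoid dendritic cell and 1 of 1 tested B cell markers. Lower without overlap were 1 of 4 tested dendritic cell and 1 of 1 tested T or NK cell markers. The part of these cells in the receptor levels was not tested. In a limma fit with a term for Xist reads, a choice made after seeing the data, 0 of 9 receptors were called, beside 0.00707% of all genes (1 gene), and Tlr9 alone had an unadjusted p under 0.05. The log2 difference of Tlr9 in that limma fit was 0.31 (Benjamini-Hochberg adjusted p = 0.624), and 7.78% of all genes had an unadjusted p under 0.05. All 9 receptors had log2 differences above 0 there, the smallest 0.015 for Tlr13, beside a median of -0.0017 over all tested genes.

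Within the numbers 1 and 2, and within 3 and 4, the genotypes could be set side by side with 2 libraries each. The log2 differences, Elmo1-/- minus Elmo1+/-, were -0.26 in numbers 1 and 2 and 0.31 in numbers 3 and 4 for Tlr9, and 0.33 and 0.053 for Tlr3. Tlr4, Tlr6 and Tlr7 were also below 0 in numbers 1 and 2 (-0.19, -0.19 and -0.13) and above 0 in 3 and 4 (0.053, 0.063 and 0.11). Tlr1, Tlr2 and Tlr8 were above 0 in both, and Tlr13 was 0.087 and -0.042. The difference between the sets was tested as an interaction in limma. It was called for 0 of 9 receptors (Benjamini-Hochberg adjusted p = 0.9999 for each), beside 0% of all genes. An unadjusted p under 0.05 was found for 0 of 9, beside 2.67% of all genes, and the smallest was 0.149, for Tlr9.

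The partner genes of TLR2 were compared with Tlr2 as ratios of levels per kilobase. Tlr2 exceeded Tlr1 by 4.07 ± 0.230 times (SD, n = 8, range 3.67 to 4.43) and Tlr6 by 10.4 ± 0.843 times. Tlr1 exceeded Tlr6 by 2.56 ± 0.226 times, a ratio that includes the reads they share. The ratio of Tlr7 to Tlr8 was 2.06 ± 0.349, at 2.19 to 2.67 in the 3 libraries without Xist reads and 1.68 to 1.97 in the others. That of Tlr13 to Tlr7 was less steady, at 2.08 ± 0.496. It was 1.55, 1.54, 2.61 and 2.60 in the Elmo1+/- cultures numbered 1 to 4, against 1.44, 2.23, 2.48 and 2.20 in the Elmo1-/- cultures, so that it was lowest in the 3 libraries without Xist reads.

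Other members of the family had few reads. Tlr5, the receptor for flagellin, had 34, 50.4, 12.2 and 14.3 normalized counts in the Elmo1+/- cultures numbered 1 to 4, against 61.5, 26.3, 29.2 and 24.1 in the Elmo1-/- cultures. With 264 reads in all, it was tested and not called (log2 difference 0.46, SE 0.48). Tlr11 and Tlr12, receptors for profilin of protozoa, had 7 and 8 reads in all 8 libraries together and did not pass the filter on low values.

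The rest of the pathway was read from lists by role, 79 genes matched and 76 tested. None was called (0 of 76, against 0.00707% of all genes), and 1 had an unadjusted p under 0.05, against 0.941% of all genes. The median log2 difference between genotypes was 0.0031, with 39 genes above and 37 below 0. In the limma fit with a term for Xist reads, chosen after seeing the data, 0 of the 76 were called. An unadjusted p under 0.05 was found there for 15 of the 76, beside 7.78% of all genes, and the excess was not tested. Between the numbers, 16 of the 76 were higher and 13 lower in mice 1 and 2 without overlap, near the 15.8% and 18.1% of all tested genes, so these counts are no result about the pathway as a whole. The counts by number in the lists below are to be read against the same background.

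Co-receptors came first, with 7 of 7 genes tested, 0 called and a median log2 difference of 0.022. Cd14, which hands lipopolysaccharide to TLR4, lay at 16432 to 20626 normalized counts in mice 1 and 2 and 14188 to 15797 in mice 3 and 4. Ly86, the partner of the TLR4 relative CD180, lay at 738 to 1497 and 446 to 612. These 2 of the 7 were higher in mice 1 and 2 without overlap, and none was lower. Ly96, which binds lipopolysaccharide with TLR4, lay at 455 to 570 over the 8 libraries. Its ranges by number overlapped, as did those of Cd36. Cd180 overlapped too, at 6179 to 7028 in mice 1 and 2 and 6560 to 7705 in mice 3 and 4.

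Of the chaperones and endosomal proteins, 11 of 12 listed genes were matched and tested, with 0 called between genotypes and a median of 0.032. Unc93b1, which escorts the nucleic acid receptors to endosomes, lay at 13020 to 21001 normalized counts in mice 1 and 2 and at 9047 to 11305 in mice 3 and 4. Cnpy3 and Hsp90b1, chaperones that fold the receptors, were likewise higher in mice 1 and 2, at 2312 to 3302 against 1946 to 2051 and at 25399 to 30124 against 21715 to 24290. In all, 6 of 11 were higher without overlap and 0 lower.

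Signalling genes are given next. Among 6 adaptors 0 were called (median 0.025), and by number 1 was higher and 2 were lower in mice 1 and 2, beside 15.8% and 18.1% of all genes. The higher one was Myd88, the adaptor of most of these receptors, at 2709 to 3186 against 2465 to 2573 normalized counts. Sarm1 and Pik3ap1 were the lower ones, and the ranges of Tirap, Ticam1 and Ticam2 overlapped. Among 16 kinases and ubiquitin enzymes 0 were called (median -0.0075), with 2 higher and 6 lower. Irak1, a kinase recruited by MYD88, lay at 2778 to 3124 in mice 1 and 2 and 3592 to 3771 in mice 3 and 4. Traf6, the ubiquitin ligase that both these receptors and RANK use, lay at 993 to 1223 and 1386 to 1575. Irak4 was among the higher ones, at 1056 to 1139 and 987 to 1051.

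For the 9 transcription factors 0 were called (median 0.072, range -0.022 to 0.37). By number 3 were higher and 1 lower in mice 1 and 2, beside 15.8% and 18.1% of all genes. Nfkb1 overlapped by number, at 4370 to 5110 and 4600 to 5127 normalized counts. Nfkb2, the precursor of the p52 subunit of NF-kappaB, was the 1 gene of the 76 tested whose genotypes did not overlap. Among all genes 0.941% did not overlap in either direction and 0.502% in this one, so 1 of 76 is near the background. Nfkb2 had 5432, 5591, 5369 and 5580 normalized counts in the Elmo1+/- cultures numbered 1 to 4, against 5951, 5669, 5770 and 5714 in the Elmo1-/- cultures. The difference was small, a log2 of 0.072 (SE 0.056, exact two-sided permutation p = 0.0286, the smallest possible, and 1 after adjustment over the tested genes).

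The 12 negative regulators had 0 called and a median of 0.0034, with 2 higher and 3 lower in mice 1 and 2, near the share of all genes (15.8% and 18.1%). Irak3, a kinase-like inhibitor of IRAK signalling, was among the higher ones at 9847 to 10462 normalized counts against 8377 to 8822, and Tnfaip3, the ubiquitin-editing inhibitor of NF-kappaB, among the lower at 2410 to 2905 against 3461 to 4078.

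Target genes of the receptors had 14 of 15 tested, 0 called and a median of -0.088, with 0 higher and 1 lower in mice 1 and 2. Tnf lay at 3145 to 5198 normalized counts over the 8 libraries, and Ifnb1, the interferon gene that several of these receptors induce, had 9 reads in all and was not tested. Cxcl10, an interferon-induced chemokine, was the 1 gene with an unadjusted p under 0.05. Its values were 388, 443, 512 and 755 in the Elmo1+/- cultures numbered 1 to 4, against 829, 971, 659 and 999.6 in the Elmo1-/- cultures, with Elmo1-/- mouse 3 inside the Elmo1+/- range. Cxcl10 had a log2 difference of 0.75 (SE 0.21, unadjusted p = 0.00678 and Benjamini-Hochberg adjusted p = 0.9999 in limma), so it did not pass the test. Nfkb2 and Cxcl10 were singled out after their values were seen.

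Genes with the profile most like that of each receptor were sought by the root mean square difference of their log2 values over the 8 libraries, after subtracting the mean of each gene, among 14087 tested genes. Over the receptors the median difference to all genes ran from 0.207 (Tlr13) to 0.561 (Tlr9), and the 2 nearest genes are given as a description. For Tlr2 they were Atp8b4 (0.0302) and Il17ra (0.0359). For Tlr1 they were Ms4a6d (0.0387) and Plpp3 (0.0438). Tlr4 was nearest to Ptprc (0.0452), the leukocyte antigen CD45, and Dse (0.0543), and Tlr6 to Leng8 (0.0723) and Tanc2 (0.0726).

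Among endosomal receptors, Tlr13 was nearest to the transcription factor gene Klf7 (0.0260) and to Lipa (0.0399), the lysosomal lipase. Tlr7 was nearest to Bst1 (0.0558) and to Rnaset2b (0.0586), a lysosomal RNase gene with a near-identical copy, Rnaset2a, so its count is uncertain. Tlr8 was nearest to Gm19026 (0.0717) and Pgm2l1 (0.0758), Tlr3 to Zfp580 (0.0964) and Slamf6 (0.0969), and Tlr9 to Serpini1 (0.0689) and Sapcd2 (0.119). All profiles share the same 8 libraries. Among the receptors themselves, Tlr1 and Tlr2 were the nearest pair, at 0.0769. Tlr9 was furthest from its nearest receptor (0.273, Tlr7), followed by Tlr13 (0.185, Tlr8).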

How the data were processed

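The authors sequenced mRNA libraries (75 bp paired-end reads) of osteoclasts from 4 Elmo1-/- and 4 Elmo1+/- mice, 1 library per mouse. The submitters' processing notes name FastQC, STAR, featureCounts and DESeq2. Their versions, the genome build, the annotation and the use of strand were not given in the sources used here. Values deposited by the authors are a normalized signal, the count of reads on each of 46517 genes divided by 1 size factor per library. Their deposited table also holds a genotype comparison by the authors, with a log2 fold change, its SE, a test statistic (a score), a p-value and an adjusted p-value per gene, none of which was used.

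Symbols and coordinates came from GENCODE mouse release 21 (GRCm38). Of the identifiers, 46005 had a symbol there and 512 did not. Undoing the size factors gave whole reads for 100% of values in each library, within 0.01 of a read. For Elmo1+/- mouse 2, 1 read was worth close to 1 normalized count (0.989), so whole values are weaker evidence there. Libraries held 20905502 to 40846651 reads on genes. No pair within a genotype was a copy, with a chi-square per gene between 8.63 and 189. The replicates are cultures of separate mice, taken over more than 1 experiment, and which mice shared an experiment is not stated, so experiment was not a term.

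Genotypes were compared with limma 3.58.1 in R 4.3.3 (empirical Bayes, with a trend and robust) of log2-transformed values, log2(normalized count + 1), which understates changes of low genes. Tested genes had 10 or more normalized counts in 4 or more libraries, with Benjamini-Hochberg adjustment over all of them at 0.05. Exact two-sided permutation tests used the 70 arrangements of 4 and 4 mice on mean log2 values. Levels per kilobase used the union of exons. Read windows, motif matches and profiles were computed in Python 3.11.15 with pandas 2.3.3 and numpy 2.4.6. The scripts were tested on simulated data.

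The receptors and lists were chosen with earlier results of these data known. All 9 receptors are named. For each, the 2 genes with a symbol and the nearest profile are named, beside Elmo1, the lists by role and marker genes. Tasl was not matched, and Lrrc33 was matched as Nrros.

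Same-numbered libraries deviated together from their genotype means. The correlation over genes was between 0.156 and 0.703 for the 4 pairs, each over 0.1. On that basis the numbers were taken to pair the libraries, although the labels do not say what they stand for. Differently numbered libraries were not correlated for comparison. The split between the sets of numbers on the first principal component runs through both genotypes. It can raise these correlations without a pairing by single number, so the check cannot decide whether each number marks a pair. Alternatives were edgeR 4.0.16 (quasi-likelihood) and DESeq2 1.42.0 (Wald test) on the recovered reads, other scalings, filters and pseudocounts, the number as a block, and leaving out each library.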

Additional observations from a re-analysis of the deposited data

Results flagged for a closer look

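Each of the 9 receptor genes was checked in both genotypes for a library far from the other 3 of its group, 18 groups in all. Only Tlr9 in Elmo1-/- mouse 1 stood apart, at 299 normalized counts against 139 to 163 in the other Elmo1-/- libraries. Its gap was 0.852 of the range of the group, more than Dixon's test allows at 95% for 4 samples. Chance gives about 1 such library in 20 groups. The same library was the lowest of the 8 in osteoclast markers (454766) and the highest in macrophage markers (281310), and it held no Xist reads. Their part in its Tlr9 level was not tested.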

How the results depend on the processing

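Of 171 log2 differences of the 9 receptors recomputed under 19 alternatives each, 145 kept their sign and 26 changed it, and only Tlr3 never changed. No receptor was called under any of the 19. With a term for Xist reads, chosen after seeing the data, the log2 difference turned to 0.030 for Tlr4, 0.076 for Tlr6 and 0.17 for Tlr7. All 9 receptors were then above 0, from 0.015 (Tlr13) to 0.31 (Tlr9). The log2 difference became 0.0026 for Tlr7 under TMM scaling, and -0.037 (edgeR) and -0.031 (DESeq2) for Tlr9. Leaving out 1 library at a time gave -0.074 to 0.18 for Tlr1, -0.065 to 0.14 for Tlr2, 0.072 to 0.38 for Tlr3, -0.18 to 0.033 for Tlr4, -0.21 to 0.085 for Tlr6, -0.18 to 0.13 for Tlr7, -0.087 to 0.17 for Tlr8, -0.23 to 0.25 for Tlr9 and -0.027 to 0.085 for Tlr13. The highest Tlr3 value, without Elmo1-/- mouse 3, had an unadjusted p of 0.0393 in limma (Benjamini-Hochberg adjusted p = 0.9999). For the other 8, values this near 0 change sign with 1 library, and the cause was not tested.

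DESeq2 called 2 genes in all (Elmo1 and Gpr137b-ps). Leaving out 1 library gave 1 to 2, with both genes called without Elmo1+/- mouse 2. With the library number as a block, 1 gene and 0 receptors were called, and 389 genes had an unadjusted p under 0.05 instead of 133. The block changed no call. It left the log2 differences of the receptors unchanged and lowered the SE of each. The SE went from 0.16 to 0.080 for Tlr2, from 0.20 to 0.11 for Tlr3 and from 0.37 to 0.19 for Tlr9. For Tlr13 it went only from 0.092 to 0.087. The unadjusted p of Tlr3 in limma was 0.103 with the block and 0.376 without. The intervals given for the receptors have no block, so they include the spread between the numbers.

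The count of receptors with no overlap between numbers 1 and 2 and numbers 3 and 4 was 6, and 6 to 8 when libraries were left out. It was 8 only without Elmo1-/- mouse 2 or without Elmo1-/- mouse 4. With a library left out, ranges of any gene overlap less easily. The share of all genes was not computed for these counts, so the rise is no result about the receptors. Leaving out libraries here and the length without shared windows were choices made after seeing the data. Depth limits Tlr9 most, with 68 reads in its shallowest library.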
